A study of Mus musculus with 12 samples.

Results

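The 33 genes described here encode the machinery of glycolysis and a set of classic hypoxia-inducible genes. They were listed by name, with earlier results of these data known: 2 glucose transporters, 14 glycolytic enzymes, 2 lactate transporters, 3 regulatory kinases, 11 other targets of hypoxia-inducible factor (HIF) and the HIF subunit gene Hif1a. All 33 were found in the count tables of both cell lines, which list 17335 genes between them and 14360 genes in common, and all 33 passed the filter on low counts in both lines.

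RNA was sequenced from 2 mouse cell lines that had received medium conditioned by each other in sequence. PSC4 is a pancreatic stellate cell line, the fibroblast-like cell of the pancreatic stroma, and KPC4 is a pancreatic adenocarcinoma line. In the PSC4 groups, KPC4 donor cells were given vehicle or 10 µM gemcitabine, a nucleoside analogue used as chemotherapy, for 6 h, were washed, and conditioned starvation medium for 14 h. PSC4 cells then spent 24 h in that medium, called Control-SU or Gem-SU. In the KPC4 groups, PSC4 cells that had spent 6 h in Control-SU or Gem-SU were washed and conditioned fresh starvation medium for 18 h, and KPC4 cells spent 24 h in it, called Control-PSC-SU or Gem-PSC-SU. Each of the 4 groups held 3 libraries labelled as biological replicates. Every group, controls included, therefore received a conditioned starvation medium, and none received plain medium. PSC4 and KPC4 are single lines, so that the replicates are cultures and not animals. The oxygen and glucose of the media were not measured in the files used here.

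Glycolysis converts glucose to pyruvate in the cytosol, and lactate dehydrogenase reduces pyruvate to lactate, which leaves the cell through monocarboxylate transporters. When oxygen is low, prolyl hydroxylases no longer mark HIF-1α and HIF-2α for destruction. The stabilised subunits pair with ARNT and bind the core sequence ACGTG or GCGTG near their target genes, among which are most genes of glycolysis. Growth factor signalling raises several of the same genes without a fall in oxygen, and pancreatic tumours are known for both poor oxygenation and high glycolysis.

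Total estimated counts ranged from 29559414 to 38138356 per PSC4 library and from 26354328 to 34744150 per KPC4 library. Epithelial markers summed to 6031 to 7533 CPM (the usual count scaled to library size, here to totals adjusted by TMM) in the 6 KPC4 libraries. In PSC4 they summed to 16.1 to 17.0 CPM in Control-SU and to 18.2 to 23.0 CPM in Gem-SU. Epcam, Cdh1, Cldn4 and Esrp1 were not listed there. Of the 5 epithelial markers tested in PSC4, Krt19 and Grhl2 were higher and Muc1 was lower (edgeR, adjusted p under 0.05). Over all genes tested in PSC4, 24.3% were higher and 22.0% lower. Of 12 stellate and fibroblast markers, 11 were listed in PSC4. They summed to 8139 to 8705 CPM in Control-SU and to 2457 to 3671 CPM in Gem-SU. Of the 11, 8 fell (edgeR, adjusted p under 0.05), against 22.0% of all genes tested in PSC4. In KPC4 the 7 listed stellate markers summed to 2417 to 2806 CPM in controls and to 1848 to 2208 CPM after Gem-PSC-SU, so that the summed list did not separate KPC4 controls from PSC4 Gem-SU libraries. Most of the KPC4 sum was Vim, the intermediate filament vimentin (mean 2588 CPM in KPC4 controls and 1671 CPM in PSC4 controls), and Pdgfrb, Des, Thy1, Dcn and Lum were not listed in KPC4. In PSC4 the listed markers Acta2 (log2 0.78, edgeR adjusted p = 0.0538), Des (0.25) and Fap (-0.38) were not called, so the list did not fall as a whole. The loss of most stellate marker RNA in PSC4 moved with every PSC4 result below, and its part in them was not tested. In bulk RNA, fewer cells of a kind and less RNA per cell cannot be told apart.

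The upstream stretches below come from members that moved in opposite directions. They were picked among members with the HIF core motif ACGTG before the start, so each holds it by selection. Of the other members called in PSC4, Pfkp, Pfkfb4 and Kdm3a (higher) and Pdk1 (lower) had no ACGTG in their windows. Sequences are RefSeq's, build GRCm38.p6, read 5′ to 3′ on the gene's strand, with ACGTG or its reverse complement CACGT in capitals (CACGTG holds both). A 300-base window around the start site, from 250 bases before to 50 after, was found for 30 of the 33 members. The first 4 stretches come from genes that were higher in PSC4 after Gem-SU. Slc2a1 lies on the plus strand of chr4:119108665-119108744 and Hk2 on the minus strand of chr6:82774465-82774544. P4ha1 lies on the plus strand of chr10:59323216-59323295 and Egln3 on the minus strand of chr12:54204045-54204124.
Slc2a1: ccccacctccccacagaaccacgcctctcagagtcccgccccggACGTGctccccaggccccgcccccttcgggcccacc
Hk2: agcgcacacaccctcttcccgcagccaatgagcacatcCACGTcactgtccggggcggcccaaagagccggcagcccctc
P4ha1: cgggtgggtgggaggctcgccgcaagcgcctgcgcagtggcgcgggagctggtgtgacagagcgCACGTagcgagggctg
Egln3: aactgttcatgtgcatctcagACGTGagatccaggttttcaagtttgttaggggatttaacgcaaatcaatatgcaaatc

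The next 4 come from genes that were lower in PSC4 after Gem-SU. Bnip3 lies on the minus strand of chr7:138909572-138909651, Egln1 on the minus strand of chr8:124949281-124949360, Hif1a on the plus strand of chr12:73907759-73907838 and Slc16a1 on the plus strand of chr3:104638427-104638506.
Bnip3: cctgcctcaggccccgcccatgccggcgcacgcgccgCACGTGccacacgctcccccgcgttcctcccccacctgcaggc
Egln1: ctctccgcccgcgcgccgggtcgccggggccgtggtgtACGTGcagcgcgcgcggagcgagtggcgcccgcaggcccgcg
Hif1a: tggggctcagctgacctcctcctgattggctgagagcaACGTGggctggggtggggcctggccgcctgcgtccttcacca
Slc16a1: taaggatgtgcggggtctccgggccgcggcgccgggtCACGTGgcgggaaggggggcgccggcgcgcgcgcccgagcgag

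The last pair comes from glycolytic enzymes that were called lower in KPC4 only when libraries were paired by replicate number. Ldha lies on the plus strand of chr7:46845724-46845803 and Pgk1 on the plus strand of chrX:106186931-106187010.
Ldha: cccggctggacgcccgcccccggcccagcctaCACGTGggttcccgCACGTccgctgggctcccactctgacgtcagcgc
Pgk1: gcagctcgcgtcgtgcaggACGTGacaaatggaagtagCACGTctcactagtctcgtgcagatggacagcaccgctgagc

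ACGTG on either strand stood in at least 1 window of 21 of the 30 members (70%), against 28.7% of the 10092 genes that were tested in PSC4 and have a window, and 21.8% of all 27025 symbols with a window. Counting GCGTG too, 28 of 30 members (93.3%) and 46.7% of all symbols held a match. The members were listed as glycolysis genes and HIF targets, so a higher share than among all genes was built into the choice. A gene with several windows also had more chances of a match. Among the members, ACGTG was found for 5 of 8 that were higher in PSC4 after Gem-SU, 7 of 8 that were lower and 9 of 14 that were not called. A match is a string of letters and not evidence of binding, and members on both sides of 0 held it.

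In PSC4 cells given Gem-SU, glucose uptake genes and hexokinase 2 were higher while Hif1a and other members were lower. With edgeR's quasi-likelihood test and Benjamini-Hochberg adjustment over all 13347 genes tested, 10 members were higher, 9 were lower and 14 were not called. The background was high: 46.3% of all genes tested were called, 24.3% higher and 22.0% lower, against 19 of 33 members. The members thus split between the directions much as all genes did. All Gem-SU libraries lay above all controls for 12 members and below them for 9, and 56.4% of all genes had groups without overlap in either direction. The median log2 fold change was -0.11 over the members and 0.00 over all genes. Unless another tool is named, adjusted p-values below are from this test. Of the 19 calls, 11 held when any 1 library was left out. Without Gem-SU replicate 2 the count was 11 (29.8% of all genes were called), without Gem-SU replicate 3 it was 12 (35.5%), and in one fit over all 12 libraries it was 12 (40.1%). DESeq2 called 20 members in PSC4, against 51.1% of all genes.

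**Figure D1:**
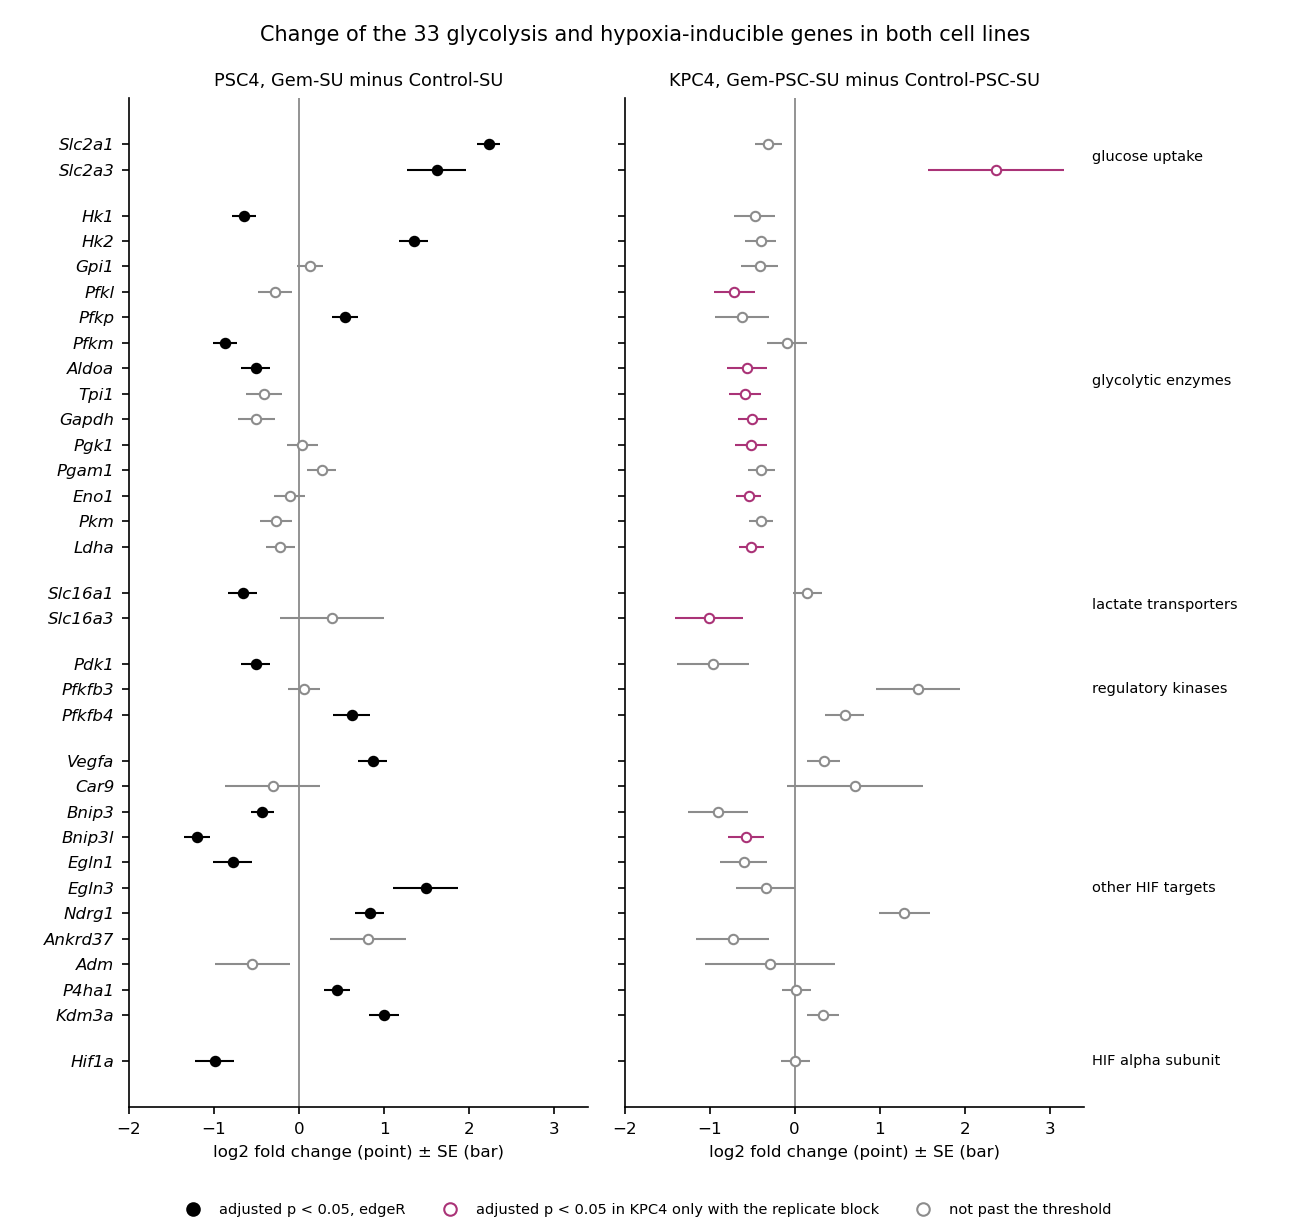
Log2 fold change (x axis, Gem minus control, point) with its standard error (bar) of the 33 members, grouped by role (y axis), in PSC4 on the left and KPC4 on the right. Filled points passed an adjusted p of 0.05 in edgeR: 10 members to the right and 9 to the left of 0 in PSC4, none in KPC4, where 10 open purple points passed only with the replicate block.

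Both glucose transporters rose in PSC4. Slc2a1 (GLUT1, the basal glucose transporter of most cells; ENSMUSG00000028645 in the count table) stood at 41.3, 37.6 and 38.1 CPM in the Control-SU libraries and at 193, 182 and 173 CPM in the Gem-SU libraries. Every Gem-SU library was above every control. The rise was 4.69-fold, a log2 fold change of 2.23 ± 0.13 (SE), with an edgeR adjusted p of 2.49e-05. Slc2a3 (GLUT3, a transporter with high glucose affinity) was scarce, at 1.13, 1.29 and 1.5 CPM in controls and 2.70, 4.18 and 5.22 CPM after Gem-SU, or 39 to 46 and 104 to 154 counts. Those groups did not overlap either, and the change was 3.08-fold (log2 1.62 ± 0.35 SE, edgeR adjusted p = 0.00570). In the fit over all 12 libraries the Slc2a3 call was lost (edgeR adjusted p = 0.0623).

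The 14 glycolytic enzymes did not move as a block in PSC4: 2 rose, 3 fell and 9 were not called, with a median log2 fold change of -0.24. Hk2, the inducible hexokinase, stood at 33.1, 29.2 and 29.5 CPM in controls and at 62.9, 91.0 and 80.0 CPM after Gem-SU. It rose 2.55-fold (log2 1.35 ± 0.17 SE, edgeR adjusted p = 5.08e-04), with all 3 Gem-SU libraries above the controls. Hk1, the hexokinase that most tissues express constantly, went the other way, from 141, 148 and 158 CPM to 106, 89.7 and 88.8 CPM. Hk1 was 1.57-fold lower (log2 -0.65 ± 0.14 SE, edgeR adjusted p = 0.00551), again without overlap.

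Pfkm, the muscle-type phosphofructokinase, fell from 137, 145 and 153 CPM to 85.3, 81.2 and 71.1 CPM. Its groups were apart and it was 1.83-fold lower (log2 -0.87 ± 0.14 SE, edgeR adjusted p = 0.00125). Pfkp, the platelet-type gene of the same enzyme, was 24.6 ± 0.451 CPM (SD, n = 3) in controls and 35.8 ± 2.58 CPM (SD, n = 3) after Gem-SU, 1.46-fold higher (edgeR adjusted p = 0.0155). Aldoa, the main aldolase, was 1.42-fold lower (edgeR adjusted p = 0.0402). The calls of Pfkp and Aldoa were each lost without Control-SU replicate 1 or 3 or Gem-SU replicate 2 or 3, with adjusted p up to 0.0773 and 0.141.

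The 9 enzymes not called were Gpi1, Pfkl, Tpi1, Gapdh, Pgk1, Pgam1, Eno1, Pkm and Ldha, with log2 fold changes between -0.50 (Gapdh) and 0.27 (Pgam1). Gapdh, the dehydrogenase often used as a reference gene, stood at 1230, 1352 and 1497 CPM in controls and 1261, 844 and 785 CPM after Gem-SU (edgeR adjusted p = 0.0985). DESeq2 called Gapdh lower, at a log2 fold change of -0.51 (DESeq2 adjusted p = 0.0360). Gem-SU replicate 1 lay within the control range and the other two libraries lay below it. Without that library Gapdh and Tpi1 passed the threshold (edgeR adjusted p = 0.00834 and 0.0193). The share of all counts that fell on the 14 enzymes was 0.564%, 0.555% and 0.650% in controls and 0.60%, 0.490% and 0.428% in Gem-SU replicates 1, 2 and 3.

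**Figure D2:**
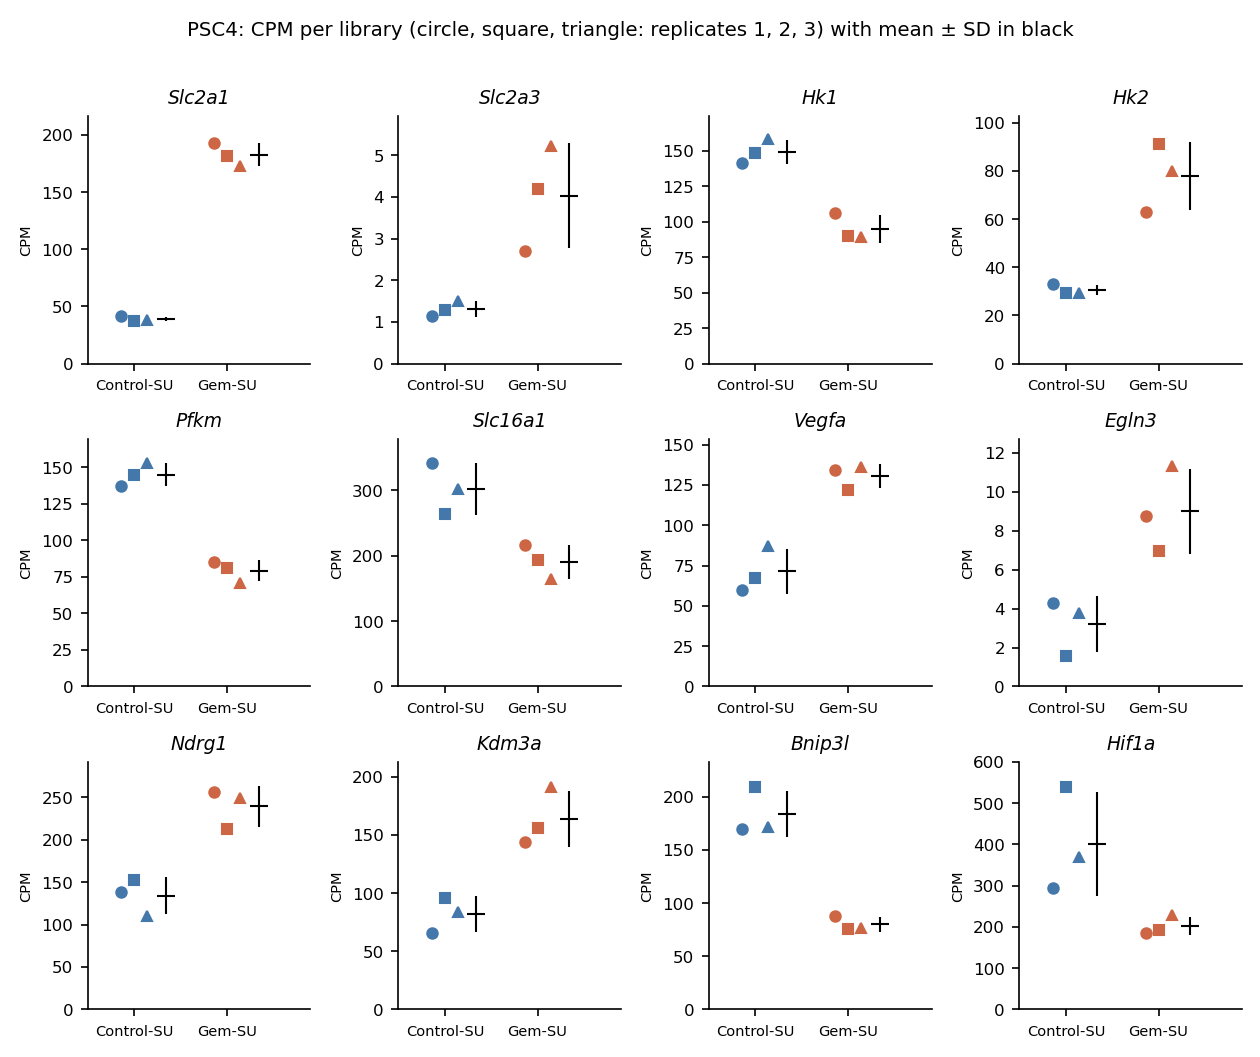
CPM (y axis, from 0) of the 12 members with the smallest p among those called with at least 1.5-fold change in PSC4, for 3 Control-SU libraries (blue) and 3 Gem-SU libraries (orange), with mean ± SD in black. In all 12 panels the groups do not overlap, and the largest gap is that of Slc2a1, from at most 41.3 CPM to at least 173 CPM.

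Because Hk2 rose where Hk1 fell, the isozyme makeup of the transcripts shifted. Per exon length, Hk2 made up 17.7% ± 1.76 (SD, n = 3) of hexokinase counts of Hk1 and Hk2 in controls and 46.1% ± 6.97 (SD, n = 3) after Gem-SU. The control libraries lay between 16.3% and 19.7% and the Gem-SU libraries between 38.2% and 51.5%. Among the 3 phosphofructokinase genes, Pfkm's share went from 54.5% ± 0.649 to 41.8% ± 2.42 and Pfkp's from 6.87% ± 0.238 to 14.2% ± 2.90 (SD, n = 3 each). For Hk2, Pfkm and Pfkp no Gem-SU library reached the control range, and an exact two-sided permutation test of 3 against 3 libraries cannot give a p below 0.1. In KPC4 the Hk2 share was 29.7% ± 1.76 in controls and 31.5% ± 4.73 after Gem-PSC-SU, and those libraries overlapped. The KPC4 share of Pfkl, the liver-type gene, went from 57.9% ± 1.11 to 49.8% ± 0.717 and that of Pfkm from 28.2% ± 1.11 to 37.9% ± 2.06, without overlap.

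**Figure D3:**
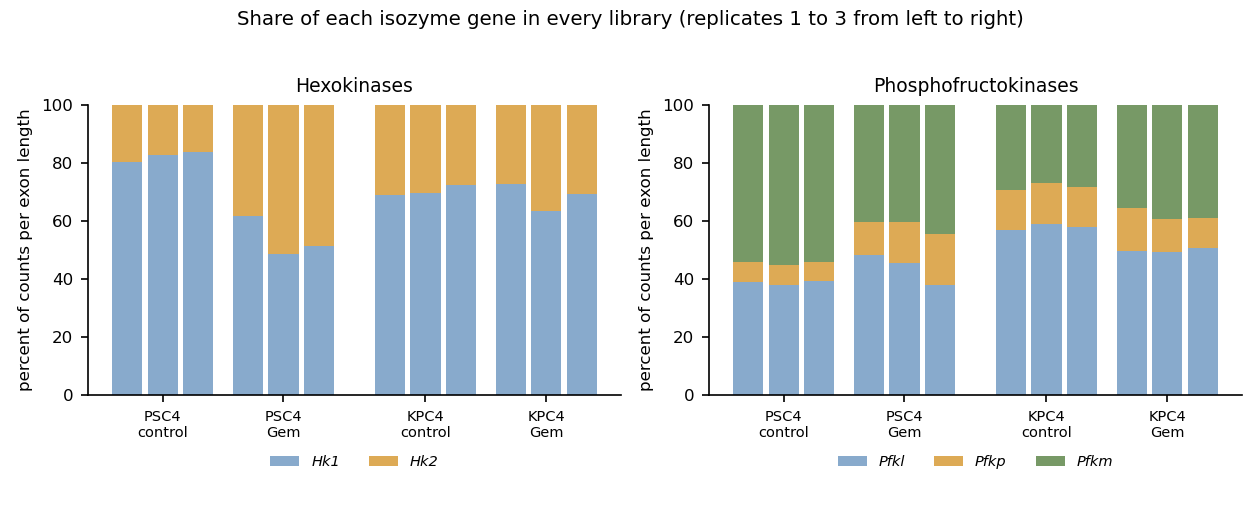
Share of each isozyme gene in the counts per exon length of its enzyme (y axis, percent, stacked to 100) in each of the 12 libraries (bars). In PSC4 the Hk2 share is 16.3% to 19.7% in controls and 38.2% to 51.5% after Gem-SU, while in KPC4 it stays between 27.4% and 36.7%.

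Of the lactate transporters, Slc16a1 (MCT1, which carries lactate in either direction; ENSMUSG00000032902) fell in PSC4. It stood at 342, 263 and 302 CPM in controls and 216, 193 and 164 CPM after Gem-SU. All Gem-SU libraries were below all controls, and the gene was 1.58-fold lower (log2 -0.66 ± 0.17 SE, edgeR adjusted p = 0.0129). The call was lost without Gem-SU replicate 2 or 3 (adjusted p up to 0.0571). Slc16a3 (MCT4, the export transporter of highly glycolytic cells) had only 11 to 34 counts per PSC4 library and was not called, with a log2 fold change of 0.39 ± 0.61 (SE).

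Of the 3 regulatory kinases, 1 rose, 1 fell and 1 was not called. Pfkfb4, whose product makes and removes the phosphofructokinase activator fructose 2,6-bisphosphate, was 15.3 ± 4.22 CPM in controls and 23.6 ± 1.25 CPM after Gem-SU (SD, n = 3 each; 1.54-fold higher, edgeR adjusted p = 0.0443). Pdk1, the kinase that holds pyruvate dehydrogenase inactive, fell from 41.1 ± 3.59 CPM to 28.8 ± 4.29 CPM (1.43-fold lower, edgeR adjusted p = 0.0339). Pfkfb3, the related kinase with the strongest activating balance, was 16.5 ± 2.88 CPM and 17.2 ± 0.843 CPM and was not called (edgeR adjusted p = 0.804). Leaving out 1 library lost the Pfkfb4 call in 5 of 6 cases and the Pdk1 call in 4 of 6, with adjusted p up to 0.122 and 0.155.

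Among the 11 other HIF targets in PSC4, 5 rose, 3 fell and 3 were not called, and the median log2 fold change was 0.45. Vegfa, the angiogenic growth factor, stood at 59.8, 67.2 and 86.9 CPM in controls and 134, 122 and 136 CPM after Gem-SU. It rose 1.83-fold (log2 0.87 ± 0.17 SE, edgeR adjusted p = 0.00329), with the groups apart. Kdm3a, a histone H3 lysine 9 demethylase, went from 65.7, 96.2 and 83.4 CPM to 144, 156 and 191 CPM, a 2.00-fold rise (log2 1.00 ± 0.18 SE, edgeR adjusted p = 0.00280). All Gem-SU libraries exceeded the highest control.

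Egln3 (the prolyl hydroxylase PHD3) was a low gene, at 4.29, 1.58 and 3.77 CPM in controls and 8.78, 6.94 and 11.3 CPM after Gem-SU. Control replicate 2 was the lowest, yet the groups did not overlap, and the rise was 2.80-fold (log2 1.49 ± 0.38 SE, edgeR adjusted p = 0.0129). Ndrg1, a stress- and differentiation-linked gene, went from 138, 153 and 110 CPM to 256, 212 and 249 CPM (1.78-fold, log2 0.83 ± 0.17 SE, edgeR adjusted p = 0.00439). Its groups were also separate. P4ha1, a subunit of the prolyl hydroxylase that modifies collagen, was 161 ± 7.53 and then 221 ± 28.5 CPM (SD, n = 3 each; 1.37-fold higher, edgeR adjusted p = 0.0353). The P4ha1 call was lost in 5 of the 6 fits without 1 library (adjusted p up to 0.123).

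The 3 that fell were the mitophagy receptors Bnip3 and Bnip3l and the prolyl hydroxylase Egln1. Bnip3l (NIX) stood at 170, 209 and 172 CPM in controls and 88.3, 75.7 and 76.5 CPM after Gem-SU. All 3 Gem-SU libraries were far below the controls, and the gene was 2.29-fold lower (log2 -1.20 ± 0.15 SE, edgeR adjusted p = 4.79e-04). Bnip3 went from 34.9 ± 2.22 to 25.9 ± 0.461 CPM (1.35-fold lower, edgeR adjusted p = 0.0357), a call lost in 5 of 6 fits without 1 library (adjusted p up to 0.121). Egln1 (PHD2, the main oxygen-sensing hydroxylase of HIF) went from 73.8 ± 6.94 to 43.0 ± 14.6 CPM (1.72-fold lower, edgeR adjusted p = 0.0240). Its call was lost without Control-SU replicate 2 or Gem-SU replicate 2 or 3 (adjusted p up to 0.0946). Egln1 and Egln3, which encode enzymes of the same reaction, thus moved in opposite directions in PSC4.

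The targets not called in PSC4 were all scarce. Car9, the membrane carbonic anhydrase used as a hypoxia marker, had 12 to 29 counts per library and a log2 fold change of -0.31 ± 0.56 (SE). Ankrd37 had 13 to 39 counts and 0.81 ± 0.45 (SE), and Adm, the vasodilator peptide adrenomedullin, had 43 to 147 counts and -0.55 ± 0.44 (SE). Adm moved between -1.16 and -0.31 when 1 library was left out, and was called lower without Gem-SU replicate 1 (edgeR adjusted p = 0.0309).

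Hif1a itself (ENSMUSG00000021109), which encodes the oxygen-regulated HIF-1α subunit, fell in PSC4. It stood at 294, 538 and 370 CPM in controls and 186, 192 and 228 CPM after Gem-SU. Control replicate 2 was the highest library, and every Gem-SU library was below every control. Hif1a was 1.99-fold lower (log2 -0.99 ± 0.23 SE, edgeR adjusted p = 0.00831), and the call held without any 1 library (adjusted p up to 0.0431). HIF-1α is governed mainly by the stability of its protein, which was not measured.

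Other genes of the pathway in PSC4 also moved in both directions, as did all genes (24.3% higher and 22.0% lower). Of 28 further HIF target genes, 11 were higher and 8 lower, with a median log2 fold change of 0.09. The collagen lysyl hydroxylase gene Plod2 (log2 1.79) and Wsb1 (1.5) were among those that rose with the smallest p. Lox (-2.55), which encodes the collagen cross-linking lysyl oxidase, and the repressor genes Bhlhe40 (-1.54) and Nfil3 (-1.48) led those that fell. The collagen-modifying HIF targets Plod2 and Lox thus went in opposite directions, with edgeR adjusted p of 1.31e-04 and 2.58e-04.

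Of 14 tested regulators of the HIF pathway, 3 rose and 4 fell. Epas1, which encodes the other main alpha subunit HIF-2α, rose from a mean of 12.7 to 35.3 CPM (log2 1.47 ± 0.15 SE, edgeR adjusted p = 2.26e-04) while Hif1a fell. Vhl, the ubiquitin ligase adaptor that recognises hydroxylated HIF, was also higher (log2 0.53), as was Siah2 (0.63). The partner subunit genes Arnt (-0.64) and Arnt2 (-1.92) and the ligase gene Siah1a (-0.83) fell, and the fourth was Elob (-0.97).

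Side branches of glucose use were measured with other lists, again beside 24.3% of all genes higher and 22.0% lower in PSC4. These lists are short, and none was tested as a list. Other glycolytic isozymes had 4 higher and 1 lower of 10 tested: Eno2 (log2 0.92), the ADP-dependent glucokinase Adpgk (0.64) and the fructose bisphosphatase Tigar (0.78) led the rise, and Eno3 (-0.76) fell. Among 6 other glucose transporters, Slc2a4, Slc2a6 and Slc2a9 rose, but Slc2a4 only from 0.157 to 1.14 CPM. Pyruvate entry to mitochondria had 4 higher and 4 lower of 12. Pdk4, an inhibitory kinase like Pdk1, rose (log2 1.25), as did Pdhb (0.75) and Pdhx (0.90), whereas Pdp1 (-1.28), Pdk2 (-1.94) and Pdha1 (-0.56) fell. In the pentose phosphate pathway Rpe (1.01) and Rpia (1.03) of the non-oxidative arm rose and the other five of 7 genes were not called. Of 3 gluconeogenesis genes tested, Pcx rose (0.73) and G6pc3 fell (-0.58).

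In KPC4, no member passed the threshold, but the glycolytic enzymes lay together below 0. With edgeR over 13236 genes, 0 of 33 members and 0% of all genes were called, and the smallest adjusted p of any gene was 0.0863. At an unadjusted p under 0.05 there were 17 of 33 members against 17.0% of all genes, and DESeq2 called 3 members, all higher, against 6.22% of all genes called and 5.30% called higher. The 14 enzymes had log2 fold changes from -0.71 (Pfkl) to -0.09 (Pfkm) with a median of -0.51, while the median over all genes was -0.02 and 51.9% of genes lay below 0. For 9 of the 14, all Gem-PSC-SU libraries lay below all controls, a state found for 10.9% of all genes. Their share of all counts was 1.99%, 1.80% and 2.07% in controls and 1.62%, 1.11% and 1.43% after Gem-PSC-SU.

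**Figure D4:**
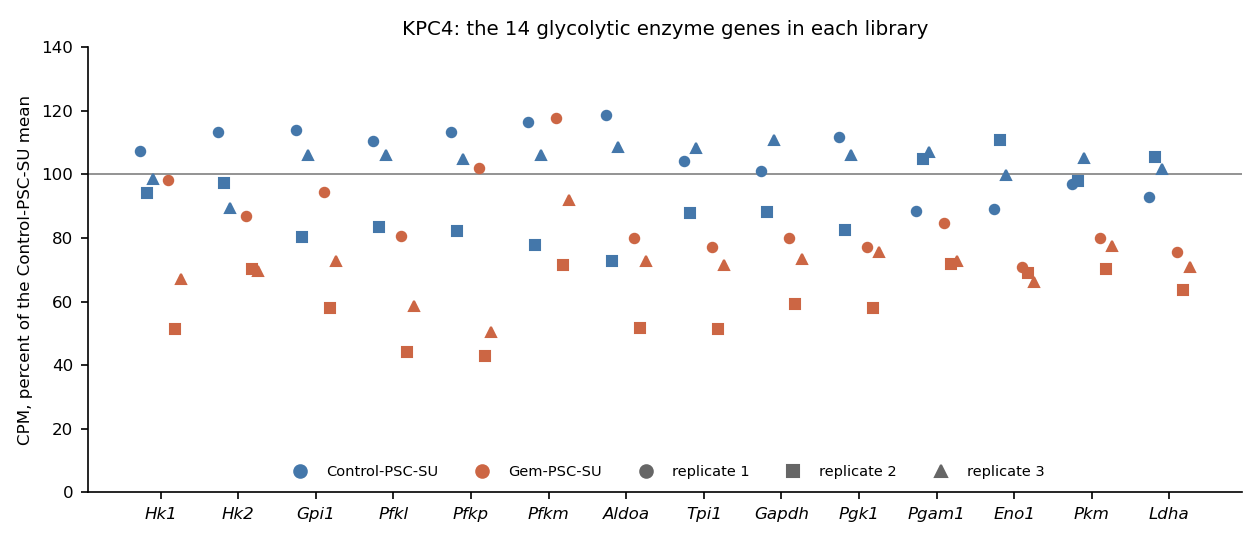
CPM of the 14 glycolytic enzyme genes in each KPC4 library as a percentage of that gene's Control-PSC-SU mean (y axis), with control libraries in blue, Gem-PSC-SU libraries in orange and the replicate number as the symbol. Nearly all orange points lie below the line at 100, the square of Gem-PSC-SU replicate 2 is the lowest for most genes, and Pfkm (log2 -0.09) overlaps most.

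The 4 enzymes with the smallest p were Eno1, Ldha, Tpi1 and Pfkl. Eno1, the main enolase, stood at 1141, 1418 and 1277 CPM in controls and 906, 882 and 847 CPM after Gem-PSC-SU (log2 -0.54 ± 0.15 SE, edgeR adjusted p = 0.162). Ldha, the lactate dehydrogenase subunit that favours lactate, stood at 1868, 2116 and 2043 CPM and then at 1519, 1280 and 1424 CPM (log2 -0.51 ± 0.15 SE, edgeR adjusted p = 0.167). Both genes had separate groups. Tpi1, the triose isomerase, was at 1190, 1003 and 1239 CPM and then 883, 588 and 819 CPM (log2 -0.58 ± 0.19 SE, edgeR adjusted p = 0.204). Pfkl was at 420, 317 and 403 CPM and then 306, 168 and 223 CPM (log2 -0.71 ± 0.24 SE, edgeR adjusted p = 0.204). Replicate 2 was the lowest library of both groups for Tpi1 and Pfkl, and all their Gem-PSC-SU libraries were below all controls.

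Deviations from the group mean correlated between same-numbered KPC4 libraries (0.450, 0.545 and 0.355). Different-numbered libraries were not compared, and no label states that the libraries are paired. With the number as a block 10 members were called, against 8.85% of all genes. Of these, 9 were lower (2.78% of all genes were): the enzymes Pfkl, Aldoa, Tpi1, Gapdh, Pgk1, Eno1 and Ldha, the lactate exporter Slc16a3 and the mitophagy receptor Bnip3l. Pfkl had a log2 fold change of -0.74 ± 0.14 (SE) in that fit (edgeR adjusted p = 0.0208), and Tpi1 -0.60 ± 0.12 (0.0280). Aldoa stood at 1991, 1222 and 1826 CPM in controls and 1342, 867 and 1220 CPM after Gem-PSC-SU. The groups overlapped, yet each pair fell by nearly the same amount, -0.57, -0.50 and -0.58 on the log2 scale (edgeR adjusted p with the block = 0.0275). Pgk1, phosphoglycerate kinase, went from 1594, 1176 and 1514 CPM to 1101, 829 and 1078 CPM, with pair differences of -0.53, -0.50 and -0.49 (edgeR adjusted p with the block = 0.0335). Over the 14 enzymes, 13 were lower in 3 of 3 pairs, and Pfkm was lower in 2 of 3. The share of all genes lower in 3 of 3 pairs was not computed. The enzymes were read in the same libraries and are not replicates of each other.

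Slc16a3 showed a larger and more uneven difference, from 336, 222 and 326 CPM to 233, 66.6 and 138 CPM. The highest Gem-PSC-SU library was above the lowest control, and the pair differences were -0.53, -1.74 and -1.24 (log2 with the block -1.17 ± 0.22 SE, edgeR adjusted p = 0.0252; without it 0.248). Slc16a1 was 264 ± 21.3 and 294 ± 44.7 CPM (SD, n = 3 each) and was called in neither fit. Slc2a3 was the 1 member called higher with the block, against 6.07% of all genes. It had 7, 34 and 7 counts in controls and 25, 142 and 59 after Gem-PSC-SU, or 0.202, 1.01 and 0.234 CPM and 0.890, 4.40 and 2.22 CPM. Its groups overlapped, all 3 pairs rose, and the log2 fold change with the block was 2.46 ± 0.48 (SE, edgeR adjusted p = 0.0249; without it 0.206). Without the block it was 2.37, and leaving out 1 library moved it between 1.68 and 3.51 with no call in edgeR. The low value came with Gem-PSC-SU replicate 2 removed, and the high value with the second control library removed. Slc2a1, far more abundant, was 254 ± 17.9 and 205 ± 16.2 CPM and was not called (log2 -0.31 ± 0.16 SE).

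Ndrg1 had the smallest p of the members in KPC4. It stood at 301, 243 and 300 CPM in controls and 422, 1020 and 619 CPM after Gem-PSC-SU, with all 3 above the controls and replicate 2 the highest. The log2 fold change was 1.29 ± 0.30 (SE), with an edgeR adjusted p of 0.124, a DESeq2 adjusted p of 0.00256 and an edgeR adjusted p of 0.0160 in one fit over all 12 libraries. Pfkfb3 rested on fewer libraries: it was at 53.4, 37.8 and 45.4 CPM in controls and 50.6, 236 and 86.8 CPM after Gem-PSC-SU. Replicate 1 lay within the control range while replicate 2 was several times higher, and the log2 fold change of 1.45 ± 0.49 (SE) had adjusted p of 0.205 in edgeR and 0.0287 in DESeq2. Leaving out 1 library moved it between 0.59 and 1.82.

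Hypoxia-inducible members of KPC4 lay on both sides of 0. Pdk1 (log2 -0.96), Bnip3 (-0.90), Ankrd37 (-0.73) and Egln1 (-0.60) were below, and Vegfa (0.34) and Kdm3a (0.33) above, none of them called. For Pdk1, Bnip3, Ankrd37 and Egln1, Gem-PSC-SU replicate 1 lay within the control range and replicates 2 and 3 lay below it. Bnip3 was at 214, 171 and 228 CPM in controls and 181, 72.5 and 74.2 CPM after Gem-PSC-SU, and Pdk1 at 169, 134 and 158 CPM and then 142, 39.3 and 56.6 CPM. Without Gem-PSC-SU replicate 1, edgeR called 11 members against 8.30% of all genes, 2 higher (Pfkfb3 and Ndrg1) and 9 lower (Hk1, Pfkl, Pfkp, Slc16a3, Pdk1, Bnip3, Bnip3l, Egln1 and Ankrd37). Hif1a was 454 ± 61.9 CPM and 457 ± 50.1 CPM (SD, n = 3 each), with a log2 fold change of 0.01 ± 0.17 (SE). Car9 and Adm had 7 to 51 and 7 to 46 counts per library and were not resolved.

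No gene of the other pathway lists was called in KPC4. The gene with the smallest p was Siah1a among HIF regulators (log2 -0.84, edgeR adjusted p = 0.185) and Bpgm among other isozymes (-0.65, 0.205). It was Pgls in the pentose phosphate pathway (-0.70, 0.165), G6pc3 in gluconeogenesis (-0.47, 0.274), Slc2a9 among other glucose transporters (-0.80, 0.343) and Pdhb in pyruvate entry (0.41, 0.436). With the replicate block Wsb1 was among the genes called higher (6.07% of all genes were). Another 6 were lower (2.78% of all genes were): Mif, Ak4, Elob, Bpgm, Aldoc and Pgls. All of these genes, apart from Bpgm and Pgls, were named after their values were seen. Epithelial markers summed to 6031 to 7482 CPM in Control-PSC-SU and to 6079 to 7533 CPM in Gem-PSC-SU.

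Whether a member changed differently in the lines was tested as an interaction over all 12 libraries. Of 33 members 4 were called, against 9.85% of 13632 genes, with 2 in each direction against 4.75% and 5.10%. Slc2a1 rose in PSC4 and was lower in KPC4 by 0.31, a difference of log2 fold changes of 2.49 ± 0.20 (SE, edgeR adjusted p = 7.41e-05). Hk2 (ENSMUSG00000000628) differed by 1.70 ± 0.25 (SE, edgeR adjusted p = 0.00172), from 1.35 in PSC4 and -0.40 in KPC4, where it stood at 189, 162 and 149 CPM and then 145, 117 and 116 CPM. These 2 calls held without any 1 library.

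Slc16a1 differed by -0.87 ± 0.25 (SE, edgeR adjusted p = 0.0448), and its KPC4 libraries were at 246, 288 and 260 CPM and then 346, 274 and 263 CPM. Hif1a differed by -1.05 ± 0.30 (SE, edgeR adjusted p = 0.0442), with KPC4 libraries at 388, 510 and 464 CPM and then 503, 463 and 404 CPM. In KPC4 the groups of both genes overlapped. The Slc16a1 call was lost in 9 and the Hif1a call in 10 of the 12 fits without 1 library, with adjusted p up to 0.103 and 0.108. With the replicate block 10 members were called, against 21.9% of genes, 6 positive and 4 negative against 9.95% and 12%. The 6 more were Pfkp, Egln3, Ankrd37 and Kdm3a, higher in PSC4 relative to KPC4, and Pfkm and Bnip3l, lower. For Aldoa and Gapdh, with log2 fold changes of -0.51 and -0.50 in PSC4 and -0.56 and -0.50 in KPC4, the difference was -0.01 ± 0.32 and -0.05 ± 0.29 (SE) and was not called.

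The control groups set the starting levels, although line and medium cannot be told apart there. Of the 33 members 27 differed (42.9% of 13632 genes did), 25 of them lower in PSC4 (20.6% of genes) and 2 higher (Pfkfb4 and Adm; 22.3%). All 14 enzymes but Pfkm were lower in PSC4, by 2.66-fold (Pgam1) to 6.04-fold (Ldha). Slc2a1 was 39.4 ± 2.19 CPM in PSC4 and 259 ± 19.8 CPM in KPC4 (SD, n = 3 each), 6.57-fold higher in KPC4 (edgeR adjusted p = 8.80e-09). After Gem-SU the PSC4 level of Slc2a1 per kilobase of exon was 51.0 CPM, between the 11.2 CPM of its control and the 73.8 CPM of control KPC4.

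The widest gap was in Slc16a3, at 0.549 ± 0.170 CPM in PSC4 and 299 ± 62.3 CPM in KPC4, 539-fold (edgeR adjusted p = 4.39e-08). Egln3 was 25.6-fold and Ankrd37 18.4-fold higher in KPC4. Slc16a1 was 305 ± 41.8 and 269 ± 23.4 CPM, Hif1a 404 ± 123 and 462 ± 64.8 CPM and Pfkm 146 ± 7.98 and 166 ± 32.0 CPM in PSC4 and KPC4, and these 3 were not called. Per kilobase, Gapdh was the highest member in every group, at 742 CPM in PSC4 controls, 509 CPM after Gem-SU, 2631 CPM in KPC4 controls and 1873 CPM after Gem-PSC-SU.

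**Figure D5:**
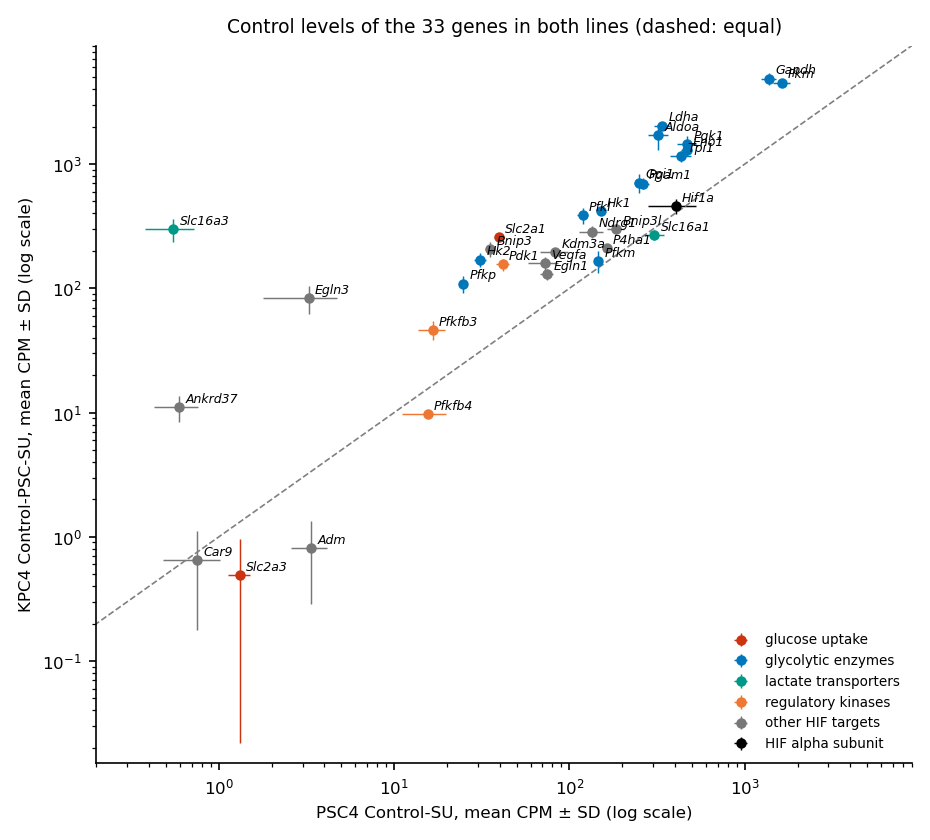
Mean CPM ± SD of each member in the 3 Control-SU libraries of PSC4 (x axis, log scale) and the 3 Control-PSC-SU libraries of KPC4 (y axis, log scale), scaled together, with roles in colour and a dashed line of equality. Nearly all enzymes lie above the line, Slc16a3 lies farthest from it at 0.549 and 299 CPM, and Hif1a, Slc16a1 and Pfkm lie near it.

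Some members share sequence with near-identical copies, so that their levels are uncertain. Eno1b had 43.9% of Eno1's count in KPC4 and 1.43% in PSC4, Pgam1-ps2 had 18.9% and 10.9% of Pgam1's, Gm5537 16.3% and 6.29% of Pgk1's and Gm10359 9.28% and 4.16% of Gapdh's. Adding all copies to the member's count, an alternative chosen after the data were seen, left the number of members called at 19 in PSC4, 0 in KPC4, 4 in the interaction and 27 between controls. In KPC4 no gene was called without the replicate block before copies were added either. The fits with the block were not repeated with copies, so the KPC4 enzyme calls were not checked in this way.

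The authors' deposited table for PSC4 listed all 33 members with 8 higher and 9 lower at an adjusted p under 0.05, and their table for KPC4 listed 2 higher and 0 lower. Over all genes with an adjusted p, the authors' deposited table passed that threshold for 6484 of 15110 in PSC4 (42.9%) and for 713 of 13791 in KPC4 (5.17%). In the authors' deposited table for PSC4, Slc2a1 had a log2 fold change of 2.21 and Hif1a of -1.07. Pfkp (log2 0.25, adjusted p = 0.396), Pfkfb4 (0.49, 0.147) and Bnip3 (-0.25, 0.282), called above by edgeR, did not pass in the authors' deposited table. Gapdh was lower at -0.56 in the authors' deposited table, with an adjusted p of 0.0219. The 2 members that passed in the authors' deposited table for KPC4 were Pfkfb3 (log2 1.44, adjusted p = 0.0304) and Ndrg1 (1.31, 0.00309). Slc2a3, called above in KPC4 with the block, did not pass in the authors' deposited table (log2 1.38, adjusted p = 0.416).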

How the data were processed

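RNA-seq libraries of 2 mouse cell lines (12 libraries, 4 groups of 3, grouped by their titles) were analysed from the authors' deposited tables, 1 per line, of estimated counts per gene. The values are whole numbers with a different total in each library. Per the submitters' processing notes the tools were FastQC, Trim Galore 0.6.10, cutadapt 5.2, Salmon, R 4.5.1 and DESeq2 with build GRCm39. No role is stated for them, and no counting program other than Salmon is named, so the counts were taken as rounded estimates. Strand setting and annotation are not given in the sources used here, so that reads of overlapping or antisense genes cannot be told apart. A second deposited table for each line holds the authors' own log2 fold change and p-value (raw and adjusted) per gene, quoted only as theirs. Symbols came from GENCODE M21 for 99.7% of identifiers in each table. No coordinates of counted genes are given because the reference at hand is GRCm38. Columns of per-sample values left unused numbered 0.

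A separate fit per line used edgeR 4.0.16 (R 4.3.3): filterByExpr (minimum count 10), TMM scaling, robust glmQLFit and glmQLFTest, Benjamini-Hochberg adjustment over all genes tested, threshold 0.05. The interaction and the control comparison came from one fit of all 12 libraries over genes in both tables. CPM uses TMM-adjusted totals within a line, or over 12 libraries for the control comparison. Shares per exon length used the union of GENCODE M21 exons. Alternatives were DESeq2 1.42.0, its size factors, other low-count filters, robust off, the replicate block, one fit over 12 libraries, leaving out each library and adding near-identical copies (at least 95% identity over 200 bases). The scripts were tested on simulated counts. Nothing states which cultures the replicate numbers tie together, so p-values measure the spread between these libraries.

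Same-numbered libraries of the groups were compared by the correlation of their deviations from the group mean. In KPC4 every value was above 0.1 (0.450, 0.545 and 0.355), which was taken as pairing, and the block is printed where it changed a call. No label states this pairing, and different-numbered libraries were not compared. The same libraries gave both the pairing and the block calls, so those calls rest on an assumption. In PSC4 the correlations were 0.599, -0.0320 and 0.101, and the libraries were not taken as paired.

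The members and all lists (further HIF targets, HIF regulators, other isozymes, other glucose transporters, pyruvate entry, pentose phosphate pathway, gluconeogenesis, and markers of stellate, epithelial, leukocyte and endothelial cells) were chosen with earlier results of these data known. Values per library are given for called members with at least 1.5-fold change (at most 12 a line, by smallest p), for the 6 members with the smallest p where none passed, and for members called in the interaction or the KPC4 block fit (at most 6 each). From other lists at most 3 genes a direction are named, and 1 where none passed. Results for some genes of these lists are not reported here. The values per library of Gapdh in PSC4 and of Bnip3 and Pdk1 in KPC4 were added after they were seen. Leukocyte markers summed to 3.66 to 6.03 CPM in PSC4 and 0.474 to 2.07 CPM in KPC4, and endothelial markers to 1.57 to 5.65 CPM and 0.771 to 3.81 CPM.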

Additional observations from a re-analysis of the deposited data

Results flagged for a closer look

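The change after gemcitabine-conditioned medium differed between the lines for 4 members, by the interaction test in edgeR, against 9.85% of 13632 genes. The difference of log2 fold changes, PSC4 minus KPC4, was 2.49 for Slc2a1, 1.70 for Hk2, -0.87 for Slc16a1 and -1.05 for Hif1a, beside a median of -0.09 over all genes. For Slc2a1 and Hk2 all 3 PSC4 libraries were higher than their controls and all 3 KPC4 libraries were lower than theirs. For Slc16a1 and Hif1a all 3 PSC4 libraries were lower and the KPC4 libraries overlapped with their controls. The lines received different media, so that line and medium cannot be told apart.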

How the results depend on the processing

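DESeq2 size factors, other low-count filters and robust estimation switched off kept all 4 counts of members within 1.5 times. One fit over all 12 libraries gave 12 members in PSC4 (Slc2a3, Pfkp, Aldoa, Pdk1, Pfkfb4, Bnip3 and P4ha1 were lost) and 1 in KPC4 (4.47% of all genes), and set Pgk1 in PSC4 at -0.01. In KPC4, DESeq2 gave 3 (6.22%). The replicate block gave 10 members in KPC4 (8.85%), 10 in the interaction (21.9%), 20 in PSC4 (54.4% of all genes; Gapdh was added, edgeR adjusted p = 0.0485) and 29 between controls (52.1%), and changed no other member's call downward. In PSC4 only the numbers are shared. Leaving out 1 library gave 11 to 19 members in PSC4 (29.8% to 49.9% of all genes), 0 to 11 in KPC4 (0 to 8.30%), 2 to 8 in the interaction (4.41% to 14.5%) and 24 to 27 between controls (35.8% to 45.4%), where Pfkfb4, Egln1 and Adm were the calls lost. The KPC4 count of 11 and the interaction count of 8 (9.75%) came without KPC4 Gem-PSC-SU replicate 1. The interaction count was 2 without PSC4 Control-SU replicate 3, Gem-SU replicate 2 or 3, any KPC4 control library or Gem-PSC-SU replicate 3. The cause of these shifts was not tested.

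No member that was called changed direction. Leaving out 1 library turned the sign of these members, none called: in PSC4 Pgk1 (-0.08 to 0.17), Pfkfb3 (-0.08 to 0.12), Car9 (-0.59 to 0.01) and Slc16a3 (-0.12 to 0.78), and in KPC4 Pfkm (-0.29 to 0.07), Adm (-1.26 to 0.29), Hif1a (-0.10 to 0.12), P4ha1 (-0.12 to 0.09) and Car9 (-0.05 to 1.41). Slc2a3, Slc16a3, Car9, Ankrd37 and Adm in PSC4 and Slc2a3, Car9 and Adm in KPC4 had fewer than 200 counts in every library. Among the PSC4 ones, Slc2a3 was the member called.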
